A study of Mus musculus with 8 samples.

Results

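The 6 genes described here, Ms4a4a, Ms4a4c, Ms4a6b, Ms4a6c, Ms4a6d and Ms4a7, encode membrane proteins of the MS4A family and were taken by name from an RNA sequencing table of 35275 genes. RNA was measured in tumor-associated macrophages, sorted as CD11b+ F4/80+ Ly6G- Ly6C- cells from MC38 tumors, a mouse colon adenocarcinoma line, at day 21 after 100000 cells were placed under the skin of female C57BL/6J mice aged 6 to 8 weeks. There were 4 mice labelled Atg5 KO (Atg5flox/flox+LysMcre) and 4 labelled Atg5 WT (Atg5flox/flox without Cre), numbered 1 to 4 in each group. All 8 hosts thus carried the floxed Atg5 alleles, and none of the samples carried LysMcre without them. LysMcre expresses Cre from the Lyz2 locus and acts in myeloid cells of the host, not in the implanted tumor cells. The comparison addressed the role of myeloid Atg5, which autophagosome formation requires.

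MS4A proteins cross the membrane several times and sit in or near receptor complexes of leukocytes. The founding members are MS4A1, which is the B cell antigen CD20, and MS4A2, the beta chain of the high-affinity IgE receptor. In macrophages, MS4A4A associates with the fungal receptor dectin-1, and human variants near MS4A4A are linked to the level of soluble TREM2, a lipid-sensing receptor. In the mouse, Ms4a6d has been described together with Vsig4 as a brake on the NLRP3 inflammasome, Ms4a7 is used to tell monocyte-derived and border macrophages from microglia, and Ms4a4c is known as an interferon-responsive gene.

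All 6 genes lie in 1 cluster on chromosome 19 of mm10 (11321039 to 11604849). In the order of the chromosome they are Ms4a7 (11321039 to 11336146, minus strand), Ms4a4a (11375523 to 11392790, plus strand), Ms4a4c (11404770 to 11427246, plus), Ms4a6c (11469366 to 11482192, plus), Ms4a6b (11516512 to 11531256, plus) and Ms4a6d (11586604 to 11604849, minus). GENCODE M21 annotates each as protein coding, with the same coordinates as the deposited table. The RefSeq promoter table (GRCm38.p6) held 5 of the 6 members, all but Ms4a6d, with 2 starts for Ms4a7. The RefSeq starts of Ms4a6b and Ms4a4c, the second start of Ms4a7 and, by a few bases, the start of Ms4a6c lie inside the gene extents given above. Of the 15 pairs among these 6 windows of 250 bases, Ms4a6b and Ms4a6c shared the longest identical run, 48 bases, against 9 or fewer bases in the other pairs. The run ended 71 bases before the annotated start of Ms4a6b and 2 bases before that of Ms4a6c. These 2 windows are shown because of that run, with the shared run in capitals, at chr19:11518309-11518558 (plus strand) and chr19:11469118-11469367 (plus strand).
Ms4a6b: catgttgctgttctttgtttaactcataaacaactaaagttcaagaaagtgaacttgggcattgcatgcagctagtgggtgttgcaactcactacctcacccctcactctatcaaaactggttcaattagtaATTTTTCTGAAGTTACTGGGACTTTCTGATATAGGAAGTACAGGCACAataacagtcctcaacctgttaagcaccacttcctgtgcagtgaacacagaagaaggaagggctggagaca
Ms4a6c: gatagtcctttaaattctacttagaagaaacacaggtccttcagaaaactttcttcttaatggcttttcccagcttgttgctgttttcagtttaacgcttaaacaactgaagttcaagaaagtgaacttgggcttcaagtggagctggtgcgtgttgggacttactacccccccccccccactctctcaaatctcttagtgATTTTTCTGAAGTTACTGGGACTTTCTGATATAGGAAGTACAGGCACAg
The window of Ms4a4c (chr19:11407411-11407660, plus strand) is shown for the letters GAGGAA, a core of the binding motif of the macrophage factor PU.1, in capitals.
Ms4a4c: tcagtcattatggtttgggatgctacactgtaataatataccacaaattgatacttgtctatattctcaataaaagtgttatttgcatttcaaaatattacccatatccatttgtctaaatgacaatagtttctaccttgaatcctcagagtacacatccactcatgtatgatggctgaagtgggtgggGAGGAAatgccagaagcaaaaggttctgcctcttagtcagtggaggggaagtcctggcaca
GAGGAA, searched on both strands, was in 1 of the 6 windows, and 23.3% of 32851 promoter windows of the same length held it. TGANTCA, the AP-1 motif, was in 1 window, that of the second Ms4a7 start (6.75% of all windows). CANNTG, the E-box, was in 4 windows (66.2% of all). The interferon response motif and TTGCNNAA, a C/EBP motif, were in none of the 6 (2.98% and 9.56% of all), which says only that these letters were not in these windows.

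The libraries held between 14799546 and 25555195 fragments assigned to genes. Atg5 had 16.2, 13.8, 12.8 and 13.3 FPKM (fragments per length of gene and per size of library) in the KO-labelled mice 1 to 4, against 6.73, 3.50, 3.93 and 3.91 FPKM in the WT mice, so the targeted gene was not lower where its deletion was labelled. Its value includes exons outside the floxed part and does not check the deletion, and the mice with that label are therefore called KO-labelled, each direction resting on the label. The Atg5 groups did not overlap (difference 1.47 on the log2 scale, limma adjusted p = 0.0987, exact permutation p = 0.0286), and the limma adjusted p was 0.00481 with the mouse as a block and 0.00274 without both mouse 1 libraries. Lyz2, whose locus carries the Cre, averaged 3022 ± 311 FPKM in the KO-labelled and 5249 ± 825 FPKM in the WT libraries (SD, n = 4 each). The Lyz2 groups did not overlap either, the KO-labelled library being lower in all 4 same-numbered pairs (difference -0.79, exact permutation p = 0.0286, unadjusted limma p = 0.000179, adjusted p = 0.985). All 10 macrophage markers checked were detected in every library, with Csf1r, the CSF1 receptor, between 347 and 392 FPKM and Adgre1, which encodes the F4/80 of the sort and is listed under its older symbol Emr1, between 94.6 and 156 FPKM. On the first principal component (58.9% of the variance), KO-labelled mouse 1 and WT mouse 1 lay at 37.8 and 34.7, away from the remaining 6 libraries between -21.3 and 3.71. The differences of the members without these 2 libraries are given below. The p values measure the spread between mice numbered in the labels, and the labels do not say whether mice shared a litter or a day.

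Every Ms4a member was well expressed, and none differed between the groups beyond the spread between mice. All 6 passed the filter of a mean of at least 1 FPKM over the 8 libraries, and between 381 and 8862 fragments lay behind each value. In a limma fit on log2(FPKM + 1) over 11019 genes, none of the 6 passed a Benjamini-Hochberg adjusted p of 0.05 (adjusted p = 0.999 for each). None of the 6 had an unadjusted p under 0.05 or groups that did not overlap. The background over all genes tested was 0% at the adjusted threshold, 2.02% at an unadjusted p under 0.05 (1.2% with higher and 0.826% with lower values in KO-labelled libraries), and 1.15% higher and 0.59% lower for groups that did not overlap. The share at an unadjusted p under 0.05 depended on the mouse 1 libraries: 378 genes were higher and 240 lower without both of them, against 132 higher and 91 lower with all 8. The difference was positive for 5 members and negative for Ms4a7, and 58.5% of all genes had a positive difference. The median over the 6 members was 0.099 on the log2 scale, beside 0.029 over all genes tested. Without both mouse 1 libraries the difference was 0.082 for Ms4a6d, 0.15 for Ms4a4a and 0.17 for Ms4a6c. It was -0.0089 for Ms4a7, 0.39 for Ms4a4c and 0.18 for Ms4a6b, with a limma adjusted p of at least 0.776 for each. In these bulk samples, fewer cells of a type and less RNA per cell cannot be told apart.

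**Figure D1:**
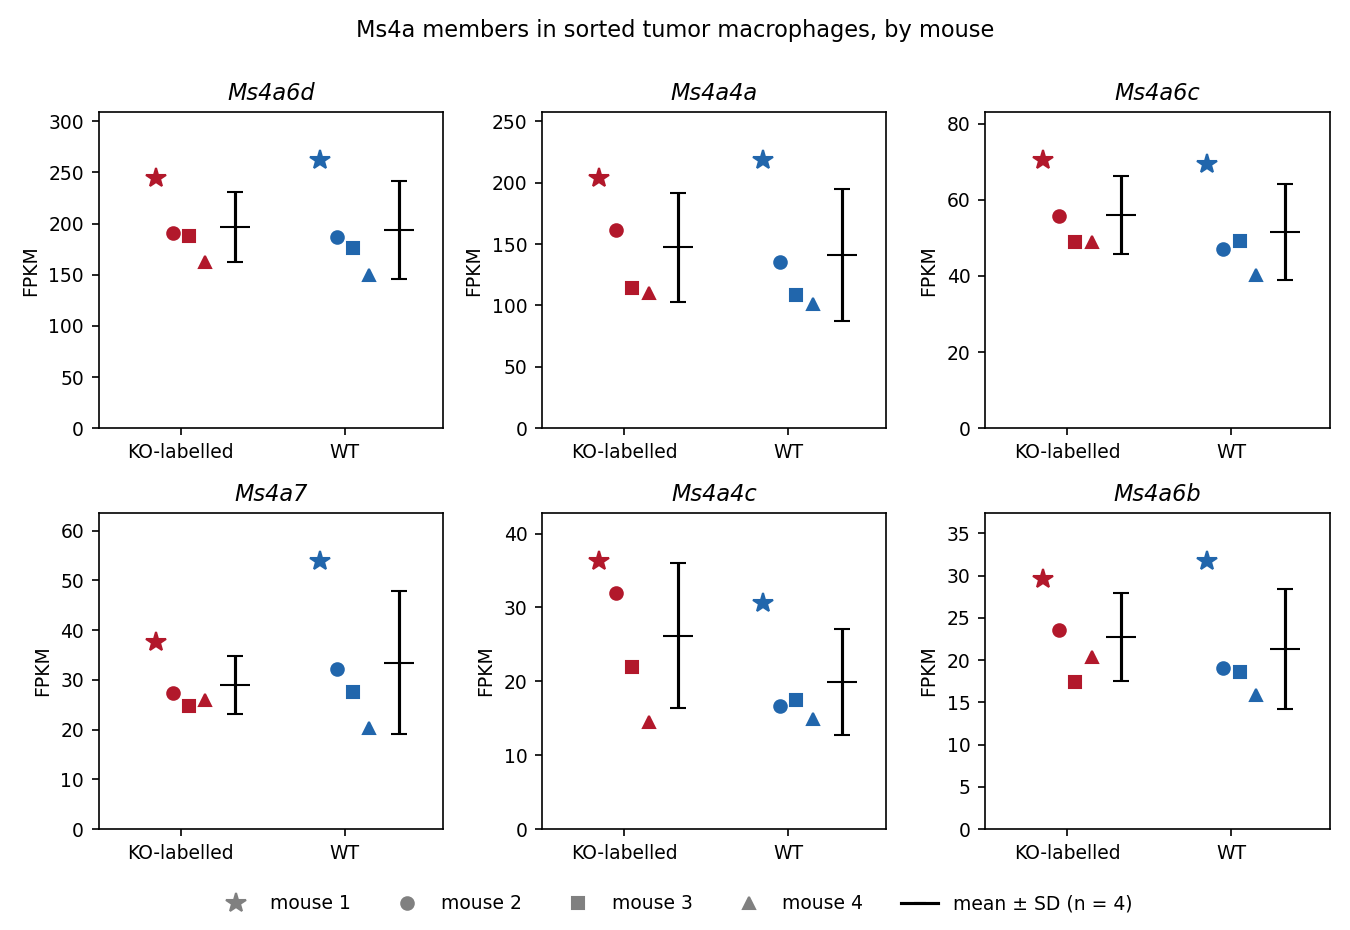
FPKM of each Ms4a member in every library, with KO-labelled mice (red) left of WT mice (blue). Symbols mark the mouse number, and the black lines give the mean and SD of 4 mice. The mouse 1 libraries (stars) hold the highest value of each group for every member, and the groups overlap in all 6 panels.

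Ms4a4a, the macrophage gene whose protein associates with dectin-1, was the second most abundant member. It had 203, 161, 114 and 109.9 FPKM in KO-labelled mice 1 to 4, against 218, 135, 108 and 101 FPKM in WT mice 1 to 4. Mouse 1 was highest and mouse 4 lowest in both groups, and the ranges overlapped almost completely. The means were 147 ± 44.2 FPKM in the KO-labelled and 141 ± 53.7 FPKM in the WT libraries (SD, n = 4 each). The difference was 0.086 ± 0.27 (SE) on the log2 scale with a 95% interval of -0.52 to 0.70, and the exact two-sided permutation test over the 70 assignments of 4 against 4 gave p = 0.771. Within mice of the same number, the KO-labelled value was higher in 3 of 4 pairs. Without KO-labelled replicate 1 the difference was -0.085, and without WT replicate 3 or 4 it was -0.017 or -0.048.

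Ms4a7, the marker of monocyte-derived and border macrophages, was the only member with a lower mean in the KO-labelled group. It had 37.6, 27.4, 24.8 and 26.0 FPKM in KO-labelled mice 1 to 4, against 53.8, 32.2, 27.6 and 20.3 FPKM in WT mice 1 to 4. The WT mouse 1 library was the highest of all 8 and WT mouse 4 the lowest, so the KO-labelled range lay inside the WT range. The means were 29.0 ± 5.87 FPKM in the KO-labelled and 33.5 ± 14.4 FPKM in the WT libraries (SD, n = 4 each). The difference was -0.13 ± 0.26 (SE) with an interval of -0.72 to 0.46 (exact permutation p = 0.686). Within mouse 1 it was -0.50, within mice 2 and 3 it was -0.22 and -0.15, and within mouse 4 it was 0.34. The difference was -0.0089 without both mouse 1 libraries, and without WT replicate 1 alone it was 0.12, so its direction rested on 1 library.

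Ms4a6d, the partner of Vsig4, was the most abundant member, at rank 327 among the 11019 genes tested when ordered by mean FPKM. It had 245, 191, 188 and 163 FPKM in KO-labelled mice 1 to 4, against 262, 187, 176 and 149.7 FPKM in WT mice 1 to 4. The order of the mice was the same in both groups, and each same-numbered pair lay close together. The means were 197 ± 34.4 FPKM in the KO-labelled and 194 ± 48.0 FPKM in the WT libraries (SD, n = 4 each). The difference was 0.037 ± 0.18 (SE) with an interval of -0.37 to 0.45, which spans 0.771 to 1.37 times on the log2(FPKM + 1) scale (exact permutation p = 0.8). It was -0.072 without KO-labelled replicate 1 and -0.076 without WT replicate 4.

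Ms4a6c and Ms4a6b, whose promoter windows share the 48-base run, gave similar small differences. Ms4a6c had 70.3, 55.8, 48.8 and 48.9 FPKM in KO-labelled mice 1 to 4, against 69.4, 47.1, 49.2 and 40.2 FPKM in WT mice 1 to 4. The pairs of mice 1 and 3 nearly coincided, while the KO-labelled library was higher in mice 2 and 4. Its difference was 0.13 ± 0.18 (SE), with an interval of -0.27 to 0.54 and an exact permutation p of 0.486. Ms4a6b, also described in mouse T cells, had 29.6, 23.6, 17.4 and 20.4 FPKM in KO-labelled mice 1 to 4, against 31.7, 19.0, 18.6 and 15.9 FPKM in WT mice 1 to 4. The KO-labelled value was higher in mice 2 and 4 and lower in mice 1 and 3. Its difference was 0.11 ± 0.22 (SE), with an interval of -0.38 to 0.61 and an exact permutation p of 0.657. Without KO-labelled replicate 1 or WT replicate 4 the Ms4a6b difference was -0.018 or -0.0050.

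Ms4a4c, the interferon-responsive member, had the widest difference of the 6 on the log2 scale, and it too stayed within the spread of the mice. It had 36.2, 31.9, 22.0 and 14.5 FPKM in KO-labelled mice 1 to 4, against 30.6, 16.6, 17.4 and 14.9 FPKM in WT mice 1 to 4. The KO-labelled library was higher in mice 1, 2 and 3 and the 2 mouse 4 libraries lay at the low end together, so the groups overlapped. The means were 26.2 ± 9.83 FPKM in the KO-labelled and 19.9 ± 7.23 FPKM in the WT libraries (SD, n = 4 each). The difference was 0.35 ± 0.30 (SE) with an interval of -0.32 to 1.02, and the exact permutation p was 0.343. Within mice 1 to 4 the differences were 0.24, 0.90, 0.32 and -0.044, the KO-labelled mouse 2 library giving the widest. With the mouse as a block, limma gave an interval of 0.030 to 0.67 (unadjusted p = 0.0356, adjusted p = 0.565). In that fit 5.19% of all genes were higher at an unadjusted p under 0.05, and its pairing of mice is not given by the labels. No alternative changed the call, and leaving out 1 library moved the difference between 0.17, without KO-labelled replicate 1, and 0.60, without KO-labelled replicate 4.

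**Figure D2:**
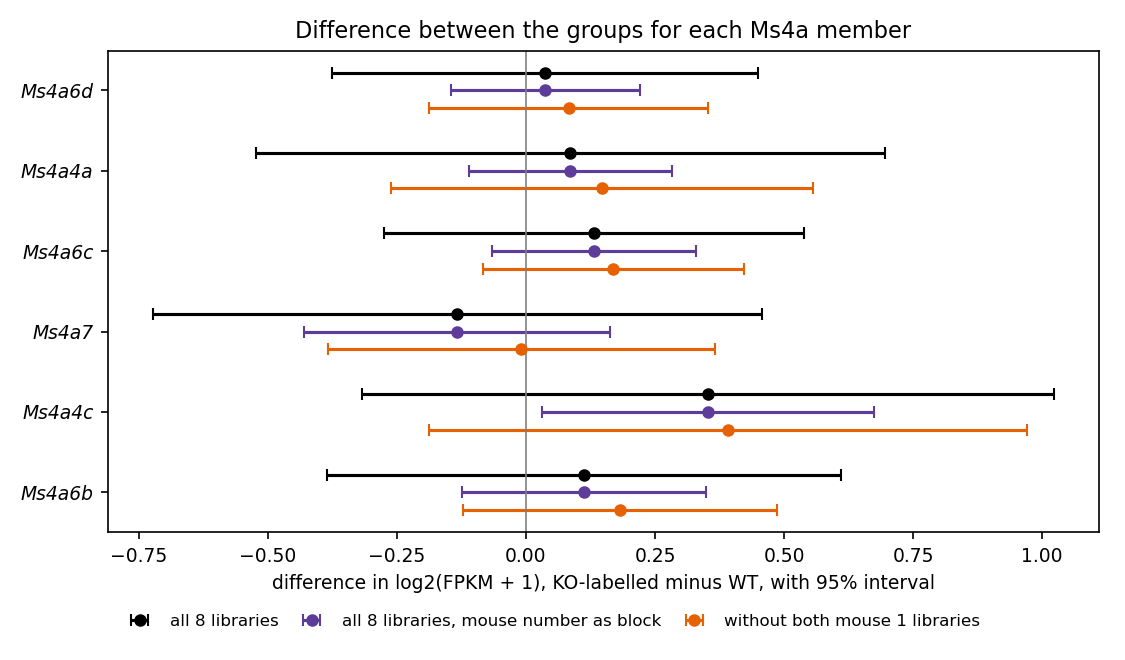
Difference in log2(FPKM + 1) between KO-labelled and WT libraries for each Ms4a member, with 95% intervals from limma, in all 8 libraries, with the mouse number as a block, and without both mouse 1 libraries. All intervals include 0 except that of Ms4a4c with the block (0.030 to 0.67), whose adjusted p was 0.565.

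The order of the levels was nearly the same in every library. FPKM is scaled by a single length per gene, from 836 bases for Ms4a4a to 4286 bases for Ms4a6b. The order between genes rests on these lengths, and whether they fit the transcripts expressed was not tested. The level of Ms4a6c is also less certain, since it shares 51.4% of its transcript sequence in 50-base words with other genes (below). Averaged over the 8 libraries the FPKM levels were 195 for Ms4a6d, 144 for Ms4a4a, 53.7 for Ms4a6c, 31.2 for Ms4a7, 23.0 for Ms4a4c and 22.0 for Ms4a6b. Each gene was compared with the next lower one within libraries, by an exact two-sided sign-flip permutation test with adjustment over these 5 pairs. The pairs and their direction were taken from the means of the same 8 libraries. The p values therefore describe how steady each gap was across libraries and are no independent support for the order. Ms4a6d was above Ms4a4a in 8 of 8 libraries by 0.47 ± 0.20 (SD, n = 8) on the log2 scale, Ms4a4a above Ms4a6c in 8 of 8 by 1.37 ± 0.20, and Ms4a6c above Ms4a7 in 8 of 8 by 0.80 ± 0.23 (adjusted exact p = 0.013 for each, the unadjusted p of 0.00781 being the smallest possible). Ms4a7 was above Ms4a4c in 7 of 8 libraries by 0.45 ± 0.41 (adjusted exact p = 0.0391), the exception being KO-labelled mouse 2, and this call was kept in only 1 of the 8 fits without 1 library, that without KO-labelled replicate 2. Ms4a4c and Ms4a6b did not differ beyond their spread (0.019 ± 0.30, exact p = 0.828, Ms4a4c above Ms4a6b in 3 of 8 libraries).

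The 2 most abundant members took most of the summed level in every library. Ms4a6d took 41.5% ± 3.02 of the summed FPKM of the 6 members in the KO-labelled and 42.6% ± 2.25 in the WT libraries, and Ms4a4a took 30.4% ± 2.76 and 30.1% ± 2.35 in the same order (SD, n = 4 each). Ms4a7 made up 6.10% ± 0.507 in the KO-labelled and 7.08% ± 0.906 in the WT libraries, and Ms4a4c 5.35% ± 1.16 and 4.29% ± 0.341 in the same order. Over the 8 libraries the Ms4a4c share ranged from 3.78% to 6.50% and the Ms4a7 share from 5.58% to 8.09%. The summed FPKM of the 6 was 622, 491, 415 and 382 in KO-labelled mice 1 to 4, against 666, 437, 397 and 342 in WT mice 1 to 4. In both groups the sum was highest in mouse 1 and lowest in mouse 4.

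The main variation of the members followed the mouse number, with the highest value of each group in mouse 1 for all 6. Since mouse 1 was singled out because its libraries stood apart, these values are a description, with no test. The mouse 1 libraries were also the 2 deepest, with 25555195 fragments in KO-labelled and 21554368 in WT mouse 1. The remaining libraries held 14799546 to 19565420 fragments, and the part of depth was not tested. Ms4a4a averaged 211 FPKM in the 2 mouse 1 libraries, against 122 ± 22.6 FPKM (SD, n = 6) in the libraries of mice 2 to 4. Ms4a6d averaged 253 FPKM in the mouse 1 libraries, against 176 ± 16.5 FPKM (SD, n = 6) elsewhere. For 5 of the 6 members, both mouse 1 libraries lay above all 6 remaining libraries, as they did for 29.8% of all genes tested. Ms4a4c was the exception, since KO-labelled mouse 2 with 31.9 FPKM lay above WT mouse 1 with 30.6 FPKM. The mouse 1 libraries exceeded the rest by 0.53 for Ms4a6d and Ms4a6c, 0.66 for Ms4a6b, 0.76 for Ms4a7, 0.79 for Ms4a4c and 0.81 for Ms4a4a on the log2 scale, between percentiles 87.4 and 96.3 of all genes tested, whose median was 0.12.

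**Figure D3:**
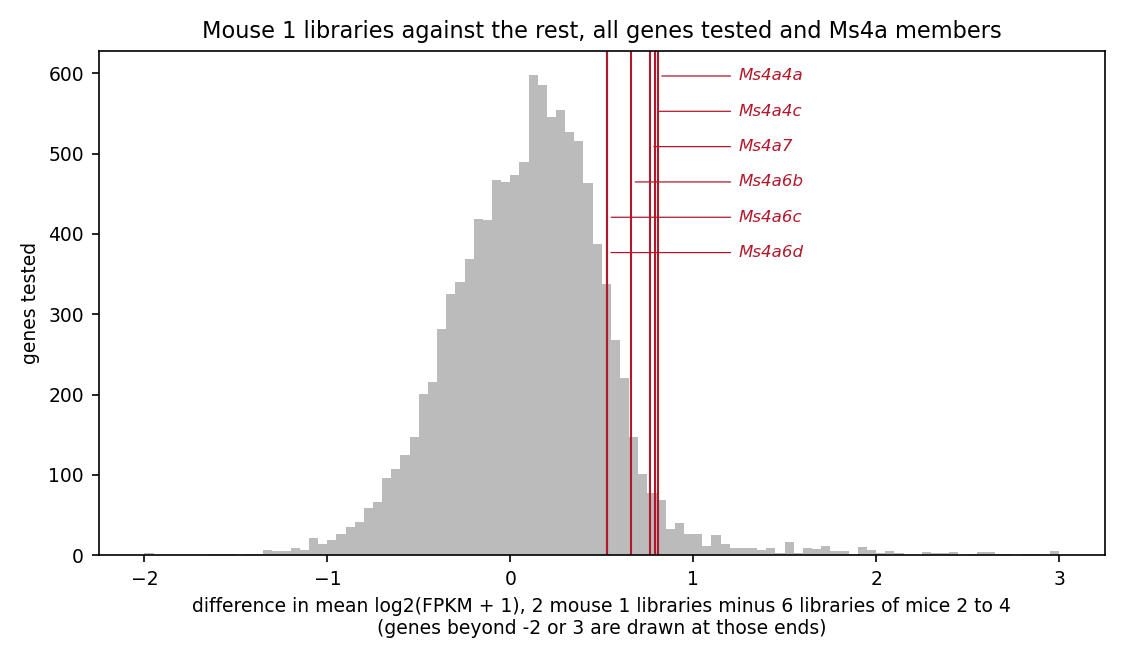
Histogram over 11019 genes of the difference in mean log2(FPKM + 1) between the 2 mouse 1 libraries and the 6 libraries of mice 2 to 4, with the Ms4a members as red lines. The members lie between 0.53 and 0.81, right of the median of all genes at 0.12.

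Some markers of other cells, mainly of fibroblasts, also stood apart in mouse 1. Both mouse 1 libraries exceeded the rest for 5 of 8 fibroblast markers, and the summed FPKM of the 8 was 218 in the KO-labelled and 109.9 in the WT mouse 1 library, against 18.6 to 36.3 elsewhere. The 6 resident-like macrophage markers summed to 376 in KO-labelled and 369.5 in WT mouse 1, against 228 to 308 elsewhere. Only 1 of the 6, Mrc1, exceeded the rest in both mouse 1 libraries. Mrc1 had 238 FPKM in KO-labelled and 245 FPKM in WT mouse 1, against 138 to 168 FPKM elsewhere. Another of the 6, F13a1, was also among the monocyte markers. The 8 monocyte markers summed to 330.5 FPKM in KO-labelled and 252 in WT mouse 1, against 164 to 253 elsewhere, so the sum of WT mouse 1 did not stand out. Both mouse 1 libraries exceeded the rest for 2 of the 8 monocyte markers, Ccr2 and Vcan, and for no dendritic cell or neutrophil marker. Over all genes tested that share was 29.8%. Ccr2 had 112 FPKM in KO-labelled and 105 FPKM in WT mouse 1, against 59.4 to 81.7 FPKM elsewhere. Vcan had 9.31 FPKM in KO-labelled and 4.24 FPKM in WT mouse 1, against 1.22 to 3.51 FPKM elsewhere. B cell markers summed to 20.3 in KO-labelled and 49.8 in WT mouse 1, against 8.84 to 16.6 elsewhere, most of it Ighm, an immunoglobulin heavy chain. The 10 macrophage markers summed to 4970 in KO-labelled and 6371 in WT mouse 1, against 4932 to 7593 elsewhere. C1qa, C1qb and C1qc had the highest values of that list in every library, so the sum says little on the others. Only 1 of the 10, Adgre1, exceeded the rest in both mouse 1 libraries. Adgre1 had 136 FPKM in KO-labelled and 156 FPKM in WT mouse 1, against 94.6 to 117 FPKM elsewhere. By group, the resident-like sums ranged from 228 to 376 in KO-labelled and from 241 to 369.5 in WT libraries, and the B cell sums from 8.84 to 20.3 in KO-labelled and from 9.81 to 49.8 in WT libraries. The fibroblast sums ranged from 31.3 to 218 in KO-labelled and from 18.6 to 109.9 in WT libraries, the monocyte sums from 206 to 330.5 and from 164 to 252, and the macrophage sums from 4932 to 7298 and from 6371 to 7593 in the same order. The groups did not overlap for 3 single markers: 1 of the 10 macrophage, 1 of the 6 resident-like and 1 of the 7 T cell markers. In the remaining lists there was none. Over all genes tested, 1.15% were higher and 0.59% lower in KO-labelled libraries without overlap. Itgam, which encodes the CD11b of the sort, had 290, 349, 332 and 319 FPKM in KO-labelled mice 1 to 4, against 243, 269, 249 and 255 FPKM in WT mice 1 to 4. Folr2, a folate receptor of resident-like macrophages, had 32.5, 26.8, 21.5 and 32.0 FPKM in KO-labelled mice, against 42.7, 39.0, 50.2 and 37.6 FPKM in WT mice. Cd2, a T cell adhesion receptor, had 1.53, 1.18, 1.86 and 1.47 FPKM in KO-labelled mice, against 3.06, 2.71, 3.99 and 2.40 FPKM in WT mice. The part of these cells in the Ms4a levels was not tested. T cell markers summed to 2.12 to 4.25 FPKM in KO-labelled and 3.67 to 8.21 FPKM in WT libraries, mast cell and basophil markers to 2.95 to 4.05 and 3.12 to 4.89, dendritic cell markers to 18.2 to 36.3 and 26.4 to 48.2, and neutrophil markers to 70.8 to 145 and 40.7 to 97.7. Among the defining markers, Ms4a1, Pax5, Ms4a2, Cd3g, Trac, Cpa3, Fcer1a, Mcpt8, Mcpt4, Ly6g and Lum were at 0 in at least 1 library.

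Members moved together across the mice. Over the 6 libraries of mice 2 to 4, Pearson's r of log2(FPKM + 1) was positive for all 15 pairs of members, with a median of 0.729. The highest was 0.887 for Ms4a6c and Ms4a6b, which also share transcript sequence (below), and the lowest 0.207 for Ms4a7 and Ms4a4c. These points share their libraries and their scaling, and n is 6. For each member, the genes with the most similar pattern over these 6 libraries were named from 7299 genes with a mean of at least 5 FPKM. They were Naip5, Lrpap1 and Pnp for Ms4a6d (r of 0.983, 0.963 and 0.958), Taf1d, Tvp23b and Abhd5 for Ms4a4a (0.996, 0.992 and 0.988), and Fundc1, Slmo2 and Slc25a46 for Ms4a6c (0.996, 0.991 and 0.985). For Ms4a7 they were Kdelr2, Gng5 and Nolc1 (0.977, 0.973 and 0.968), for Ms4a4c Pla2g7, Atp1b3 and Chd7 (0.997, 0.994 and 0.994), and for Ms4a6b Agpat6, Timm21 and Fam111a (0.995, 0.994 and 0.993). With so few libraries between 27 and 412 genes per member reached an r of 0.9, and r over all 8 libraries, which rests on the mouse 1 libraries, ranged from -0.137 for Lrpap1 with Ms4a6d to 0.996 for Naip5 with Ms4a6d.

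Most of the rest of the family was at or near 0 in these cells. Of 18 other genes of the family and its relatives, 17 were in the table and 4 had a mean of at least 1 FPKM. Ms4a1, the B cell antigen CD20, had at most 0.136 FPKM, and Ms4a2, the IgE receptor chain of mast cells and basophils, at most 0.025 FPKM. Ms4a4b, a T cell member that lies between Ms4a4c and Ms4a6c, ranged from 0.189 to 0.661 FPKM in KO-labelled and from 0.0995 to 0.355 FPKM in WT libraries. Ms4a8a, described in mouse tumor macrophages, had 12.2, 8.68, 10.3 and 8.57 FPKM in KO-labelled mice, against 10.1, 8.93, 8.52 and 12.1 FPKM in WT mice, with a difference of 0.0025 ± 0.15 (SE). Ms4a14, next to Ms4a7, averaged 4.86 ± 1.40 FPKM in KO-labelled and 5.12 ± 1.98 FPKM in WT libraries (SD, n = 4 each) and, like its neighbors, was higher in both mouse 1 libraries than in the other 6. No gene of the list passed the limma threshold in either direction, and the median difference of its 4 tested genes was -0.19 on the log2 scale, beside 0.029 over all genes.

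Tmem176a and Tmem176b, cation channels of dendritic cells and macrophages that resemble MS4A proteins, had the lowest p values of that list. Tmem176a had 22.4, 19.0, 19.2 and 17.4 FPKM in KO-labelled mice 1 to 4, against 27.6, 20.4, 26.2 and 25.1 FPKM in WT mice 1 to 4. Tmem176b had 35.4, 29.3, 24.0 and 30.2 FPKM in KO-labelled mice, against 44.4, 33.9, 43.7 and 34.8 FPKM in WT mice. Both were lower in the KO-labelled library in all 4 same-numbered pairs, while the groups overlapped for each. The differences were -0.33 ± 0.12 (SE) for Tmem176a and -0.39 ± 0.14 (SE) for Tmem176b, each with an unadjusted limma p of 0.0235 and an adjusted p of 0.999, so neither passed. The exact permutation p values were 0.0571 and 0.0857. These 2 were the only genes of that list at an unadjusted p under 0.05, in the direction for which the background was 0.826%.

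Of 9 genes reported as partners of the members or of their pathways, 8 were measured above the filter and none passed the limma threshold in either direction (lowest unadjusted p = 0.201, for Adam10). Vsig4, the partner of Ms4a6d, was at 0.0417 to 0.109 FPKM in KO-labelled and 0 to 0.188 FPKM in WT libraries, from at most 5 fragments. Clec7a, which encodes dectin-1, averaged 251 ± 70.1 FPKM in KO-labelled and 248 ± 37.0 FPKM in WT libraries (SD, n = 4 each). Nlrp3, the inflammasome sensor, averaged 162 ± 36.1 FPKM in KO-labelled and 146 ± 15.5 FPKM in WT libraries. Trem2, the lipid receptor, averaged 49.8 ± 13.6 FPKM in KO-labelled and 56.9 ± 6.51 FPKM in WT libraries, and its adaptor Tyrobp 725 ± 186 FPKM in KO-labelled and 815 ± 106 FPKM in WT libraries (SD, n = 4 each). The kinase Syk, the adaptor Fcer1g and the TREM2 sheddases Adam10 and Adam17 had differences of 0.023, -0.12, 0.17 and 0.11 on the log2 scale. None of the 8 had its 2 highest values in the mouse 1 libraries, and Syk had its 2 lowest there.

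Most genes around the members on the chromosome were below the filter. Between 200 kb before Ms4a7 and 200 kb after Ms4a6d lie 33 genes of the table, 27 of them no members, of which 4 had a mean of at least 1 FPKM. These were Ms4a14, the processed transcript RP23-32C18.5, the mitochondrial ribosomal protein gene Mrpl16 and the syntaxin gene Stx3. None passed the limma threshold in either direction, with differences of -0.041, 0.19, 0.047 and 0.0079 on the log2 scale. Mrpl16, at 10.6 to 14.9 FPKM, and Stx3, at 11.8 to 14.5 FPKM, varied less between libraries than the members did. For 3 of these 4 genes, Ms4a14, RP23-32C18.5 and Stx3, both mouse 1 libraries lay above all the rest, as for 29.8% of all genes tested. Stx3 had 13.7 FPKM in KO-labelled and 14.5 FPKM in WT mouse 1, against 11.8 to 13.2 FPKM elsewhere.

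**Figure D4:**
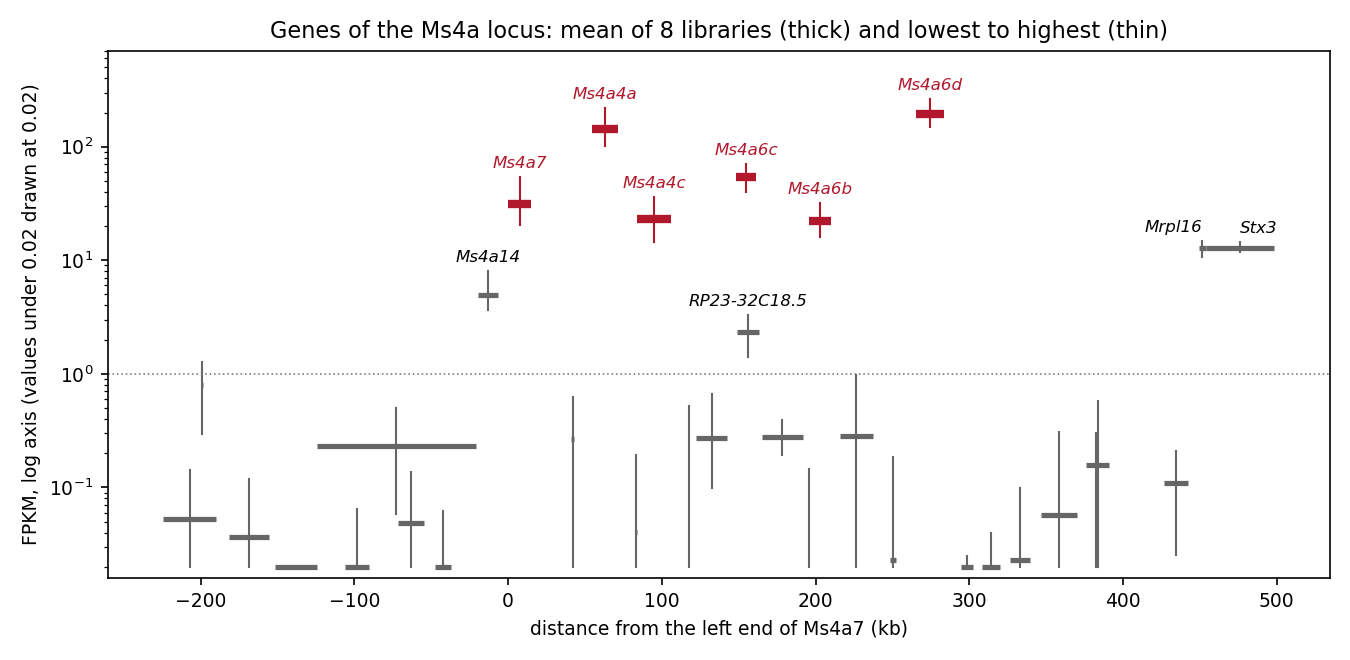
Level of the genes around the Ms4a members on chromosome 19, by distance from the left end of Ms4a7 in kb, on a log axis. Thick bars give each gene's extent at its mean FPKM over 8 libraries, thin lines the lowest to highest library, and members are red. The 6 members lie between 22.0 and 195 FPKM, above the 4 other genes with a mean of at least 1 FPKM.

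Some members share sequence with other genes. Of the distinct 50-base words in the GENCODE transcripts of each member, 51.4% for Ms4a6c, 8.19% for Ms4a4c, 3.57% for Ms4a6b, 2.54% for Ms4a6d, 0.306% for Ms4a7 and 0% for Ms4a4a occurred on either strand in transcripts of another gene. Ms4a6c shared them mainly with the gene that GENCODE names BE692007, and Ms4a4c with Ms4a4b. RP23-32C18.5 overlaps Ms4a6c on the opposite strand, and whether BE692007 is the same gene under another name was not tested. The sources used here do not give how shared reads were counted or whether strand was used, so the reads of Ms4a6c and RP23-32C18.5 cannot be told apart. RP23-32C18.5 had between 8.07% and 12.5% as many fragments as Ms4a6c.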

How the data were processed

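RNA was sequenced from sorted macrophages of 8 mice. Per the labels' protocols, a Zymo kit served for RNA extraction and an NEBNext Ultra kit for library preparation. STAR, CASAVA and mm10 are named in the submitters' processing notes, with no version or role. The sources used here do not name the counting tool, strand setting or annotation release. The authors deposited FPKM values with gene lengths. Multiplied by length, 100% of values came out whole within 0.01 fragments, so fragments per gene could be recovered. FPKM is relative to each library's total, so a rise of some genes lowers others. All 28 pairs of libraries differed beyond sampling noise, the lowest chi-square over its degrees of freedom being 8.50. The labels number separate mice but do not say that same-numbered mice were matched.

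Genes with a mean of at least 1 FPKM over the 8 libraries (11019) were tested on log2(FPKM + 1) by limma (3.58.1, R 4.3.3) with its trend option, two-sided, and p values were adjusted by Benjamini-Hochberg over all of them at 0.05. Fold changes on this scale understate those of low genes. Single genes were also tested by exact permutation of the mean, for which 4 against 4 allows no p below 0.0286. Same-numbered libraries deviated together from their group means (correlations over genes of 0.841, 0.208, 0.458 and 0.471 for mice 1 to 4), so by the rule that each exceed 0.1 the numbers were taken as pairs in an alternative fit with the mouse as a block. The pairing comes from this check, not from the labels. Only in mouse 1 did the same-numbered libraries correlate best with each other across the groups. KO-labelled mouse 3 correlated best with WT mouse 4, and WT mice 2 and 4 with KO-labelled mouse 3. The mouse 1 libraries, apart in both groups, shift the group means and so move mice 2 to 4 of both groups alike. The check therefore cannot show that mice 2 to 4 were matched. Alternatives were 2 pseudocounts, 2 filters, 3 scalings, voom on the recovered fragments, array weights, the block, each library left out, both mouse 1 libraries left out, and, added after seeing the data, the block without mouse 1. The tests were run on simulated fragments with known changes first. For limma these had the same dispersion for all genes and no mouse 1 shift, so they do not check the fit on libraries with that shift. Members, lists and tests were chosen with earlier results of these data known. Members are always named, with Atg5 and Lyz2, all list genes with a mean of at least 1 FPKM, and 3 genes of most similar pattern per member, leaving out pseudogenes and unnamed gene models. Named genes below that mean (Ms4a1, Ms4a2, Ms4a4b and Vsig4) were chosen for their known roles. Older symbols were matched through the RefSeq table for 3 list genes, and Ms4a6e was not analysed here. Motif matches and shared words were found in Python 3.11.15.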

Additional observations from a re-analysis of the deposited data

Results flagged for a closer look

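Of 42 group values checked, 2 libraries lay far from the other 3 of their group by the gap to the nearest value over the range, and chance alone would flag about 1 in 20 groups. Ms4a4c stood at 30.6 FPKM in WT mouse 1, against 14.9 to 17.4 FPKM in the other WT mice. Tyrobp, the adaptor of TREM2, stood at 658 FPKM in WT mouse 1, against 857 to 883 FPKM in the other WT mice.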

How the results depend on the processing

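No member passed an adjusted p of 0.05 in any of the 20 alternatives, the lowest adjusted p being 0.525. The number of genes called over the whole table was 0, and 1 with median-of-ratios scaling, quantile normalization, array weights, the replicate block, without both mouse 1 libraries, and with the block over mice 2 to 4, Atg5 in each. Leaving out 1 library at a time gave 0 to 1 genes, the 1 being Atg5 without WT replicate 1. No gene of the 3 lists was called in any alternative. The mouse number as a block changed no call of a member or list. Leaving out 1 library, the differences ranged from -0.085 to 0.32 for Ms4a4a, 0.17 to 0.60 for Ms4a4c, -0.018 to 0.31 for Ms4a6b, 0.018 to 0.28 for Ms4a6c, -0.076 to 0.19 for Ms4a6d and -0.34 to 0.12 for Ms4a7. The sign was thus set by single libraries for Ms4a4a, Ms4a6b, Ms4a6d and Ms4a7, and the cause was not tested. The other alternatives kept each member's direction. The small gap between Ms4a4c and Ms4a6b ranged from -0.038 to 0.089 without 1 library and was -0.014 without both mouse 1 libraries. Without them the exact permutation test called no neighbor pair after adjustment (0.117 for Ms4a7 over Ms4a4c), 0.0312 being the smallest unadjusted p that 6 libraries allow. At an unadjusted p under 0.05, genes higher and lower numbered 132 and 91, against 107 and 118 with median-of-ratios scaling, 107 and 129 with quantile normalization and 188 and 69 as TPM. They numbered 572 and 399 with the replicate block, 767 and 515 with array weights, 378 and 240 without both mouse 1 libraries and 372 and 338 with the block over mice 2 to 4. Without the filter they were 290 and 250, and with a mean of at least 5 FPKM 78 and 59. Leaving out 1 library gave 60 to 528 higher and 49 to 305 lower, the most without WT replicate 1 and the fewest without WT replicate 3.

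With 4 mice a group, the 95% intervals reach 1.37 times for Ms4a6d and 2.03 times for Ms4a4c on the log2(FPKM + 1) scale without the block. With the mouse as a block they were narrower, -0.15 to 0.22 on the log2 scale for Ms4a6d and 0.030 to 0.67 for Ms4a4c. Each member's value rested on at least 381 fragments.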
